A study of Mus musculus with 10 samples.

Results

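The genes studied were 10 mouse genes of the J-domain co-chaperones of the endoplasmic reticulum (ER): Dnajb9, Dnajb11, Dnajb12, Dnajb14, Dnajc1, Dnajc3, Dnajc10, Dnajc16, Dnajc25 and Sec63. They were chosen by name, with earlier results of these data known, out of 21887 protein-coding genes annotated on GRCm38.p6, the assembly of mm10. A gene was counted as holding a peak in a library where a peak summit lay from 5 kb before to 5 kb after its RefSeq span. XBP-1 occupancy had been measured by chromatin immunoprecipitation and sequencing of mouse liver, strain C57BL/6J, with an antibody to XBP-1s, the active form of the factor. The Fasted and Fed libraries came from wild-type mice. The Ern1-LKO libraries came from mice with a liver-specific knockout of Ern1, and the WT libraries from their wild-type controls. Each group had 2 libraries. The labels give no length of the fast, no age, no feeding state of the Ern1-LKO and WT mice and no driver of the deletion, and do not say whether libraries of a group came from separate animals.

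J-domain proteins deliver clients to Hsp70 chaperones and stimulate their ATP hydrolysis. In the ER lumen the Hsp70 is BiP, and its J-domain partners set whether it folds a protein, assists its translocation or passes it on for degradation. XBP-1 is a leucine zipper factor of the unfolded protein response, and its active form is made after the Ern1 product, IRE1, cuts the Xbp1 mRNA. It is known for activating ER chaperone and secretory genes, and in liver also genes of lipid metabolism. ER stress response elements, which pair a CCAAT box with a CCACG core, and the unfolded protein response element, with the core TGACGTGG, are its textbook DNA elements.

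Occupancy lay at the gene starts, so the promoter sequences are given first for the 6 genes on which the results turn. Each is the RefSeq window of GRCm38.p6 from 250 bases before to 50 bases after the annotated start, written 5′ to 3′ on the strand of the gene. Capitals mark exact matches, on either strand, of the ER stress response element (ERSE: CCAAT, 9 bases of any kind, CCACG), its variant ERSE-II (ATTGG, 1 base of any kind, CCACG), the unfolded protein response element (UPRE, TGACGTGG) and the core CCACG alone. Every match of the first 3 contains the core. Dnajc3 (chr14:118937682-118937981, plus strand) is shown for its ERSE, Dnajb11 (chr16:22857595-22857894, plus) for its ERSE-II and Dnajc25 (chr4:59002943-59003242, plus) for its UPRE. Sec63 (chr10:42761246-42761545, plus) and Dnajb9 (chr12:44210019-44210318, minus) are shown as strongly occupied promoters with the core but none of the first 3 elements. CCAAT boxes alone are not marked, and both windows hold one. Dnajb12 (chr10:59879333-59879632, plus) is shown as a low-ranked gene whose window holds none of the marked motifs. Its strongest summits lay 50 to 322 bp after the start, outside the window, so the sequence at its summits was not read. Except in Fasted replicate 2, these peaks began inside the window, so part of the sequence under them is shown.
Dnajc3: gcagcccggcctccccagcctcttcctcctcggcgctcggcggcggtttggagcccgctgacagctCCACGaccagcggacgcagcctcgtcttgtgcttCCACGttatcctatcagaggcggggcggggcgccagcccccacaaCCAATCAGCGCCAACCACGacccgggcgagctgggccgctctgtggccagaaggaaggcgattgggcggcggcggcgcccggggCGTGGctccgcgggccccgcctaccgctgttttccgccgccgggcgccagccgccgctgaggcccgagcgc
Dnajb11: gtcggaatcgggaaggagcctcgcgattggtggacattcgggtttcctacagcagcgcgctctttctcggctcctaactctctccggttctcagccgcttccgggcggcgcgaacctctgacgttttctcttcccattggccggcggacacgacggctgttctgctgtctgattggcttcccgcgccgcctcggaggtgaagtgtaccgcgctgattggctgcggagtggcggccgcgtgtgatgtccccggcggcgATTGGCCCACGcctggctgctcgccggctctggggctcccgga
Dnajc25: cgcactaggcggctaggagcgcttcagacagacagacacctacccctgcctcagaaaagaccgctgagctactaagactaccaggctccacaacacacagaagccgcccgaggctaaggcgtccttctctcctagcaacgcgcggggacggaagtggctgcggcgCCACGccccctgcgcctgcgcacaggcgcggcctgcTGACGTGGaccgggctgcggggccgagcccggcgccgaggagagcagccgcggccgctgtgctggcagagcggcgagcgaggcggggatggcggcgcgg
Sec63: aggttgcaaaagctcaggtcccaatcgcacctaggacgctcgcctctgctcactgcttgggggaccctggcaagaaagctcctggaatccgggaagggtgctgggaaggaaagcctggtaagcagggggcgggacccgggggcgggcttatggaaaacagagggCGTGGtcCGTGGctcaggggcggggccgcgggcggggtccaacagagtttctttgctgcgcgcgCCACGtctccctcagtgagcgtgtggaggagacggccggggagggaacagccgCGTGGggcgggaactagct
Dnajb9: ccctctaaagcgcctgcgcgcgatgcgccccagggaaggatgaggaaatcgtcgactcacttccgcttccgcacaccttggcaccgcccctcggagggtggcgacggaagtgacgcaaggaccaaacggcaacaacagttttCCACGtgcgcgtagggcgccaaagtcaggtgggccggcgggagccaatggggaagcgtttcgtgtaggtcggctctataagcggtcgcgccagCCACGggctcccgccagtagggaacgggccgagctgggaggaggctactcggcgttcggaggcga
Dnajb12: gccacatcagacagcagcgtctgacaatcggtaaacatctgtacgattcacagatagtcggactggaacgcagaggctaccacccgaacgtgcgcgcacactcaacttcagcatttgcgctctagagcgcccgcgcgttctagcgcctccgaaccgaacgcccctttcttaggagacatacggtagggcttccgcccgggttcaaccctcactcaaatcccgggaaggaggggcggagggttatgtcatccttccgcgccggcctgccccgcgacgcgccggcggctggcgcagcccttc

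The Dnajc3 window holds the full ERSE at positions -105 to -87 from the start, which is position 0, and 4 CCACG cores in all. An exact ERSE was found in 1 of the 10 genes, and in 30 of 21263 promoter windows of the same length (0.141%). Dnajb11 alone among the 10 held an exact ERSE-II, at positions 7 to 17, a sequence present in 11 windows (0.0517%). Dnajc25 alone held the UPRE, at positions -49 to -42, present in 150 windows (0.705%). The core CCACG occurred in 8 of the 10 genes and in 37.4% of all windows. Sec63 held 4 cores, Dnajb9 and Dnajc25 2 each, and Dnajb11 1. Dnajb14, Dnajc1 and Dnajc16, low-ranked genes like Dnajb12, held 1 core each. Dnajb12 had 0 in this window, as did Dnajc10, which ranked higher in every library.

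The peak lists differed greatly in length. They held 53973 and 19237 peaks in Fasted, 82975 and 47357 in Fed, 698 and 30796 in Ern1-LKO, and 6258 and 30327 in WT (replicates 1 and 2), from 4340956 to 17399899 reads kept by the peak caller per library. The Ern1-LKO replicate 1 list was the shortest although its library had 11995890 kept reads. Fasted and Fed were called against one input library and Ern1-LKO and WT against the other, so counts of genes with a peak were compared between groups only within these pairs. To compare lists of unequal length, the 698 top peaks by p-value of each library, the length of the shortest list, were also used. Peak lists do not measure expression, so neither the liver identity of the samples nor the loss of Ern1 could be checked in them. With all peaks, 1 to 3 of 5 hepatocyte marker genes held a peak in each library, with Alb in 2 libraries and Cps1 in 6. The ranges over libraries were 0 to 3 of 4 Kupffer cell genes, 0 to 3 of 3 endothelial genes and 0 to 3 of 3 stellate cell genes.

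All 10 genes held a peak in both Fasted libraries, in both Fed libraries, in Ern1-LKO replicate 2 and in WT replicate 2. In WT replicate 1 the count was 9 of 10, lacking Dnajb12, and in Ern1-LKO replicate 1 it was 5 of 10, lacking Dnajb12, Dnajb14, Dnajc1, Dnajc16 and Dnajc25. Of all protein-coding genes, 73.1% and 43.6% held a peak in the Fasted libraries, 76.1% and 71.2% in Fed, 3.58% and 62.4% in Ern1-LKO, and 19.6% and 65% in WT. Dnajb9, Dnajb11, Dnajc3, Dnajc10 and Sec63 thus held one in all 8 libraries, 5 of 10, against 2.64% of all genes. The median gene of the 10 held a peak in 7.5 libraries, and the median of all protein-coding genes was 5.

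Among the 698 top peaks, 7 and 5 of the 10 genes held a peak in Fasted, 6 and 7 in Fed, 5 and 7 in Ern1-LKO, and 6 and 8 in WT. Of all genes, 3.91% and 2.93% did in Fasted, 3.99% and 3.95% in Fed, 3.58% and 3.83% in Ern1-LKO, and 3.54% and 4.01% in WT. Dnajb9, Dnajb11, Dnajc3 and Sec63 were among the top peaks of all 8 libraries, 4 of 10 genes against 0.553% of all genes. Dnajc10 was there in 7 libraries, Dnajc25 in 6, Dnajc1 in 4 and Dnajb14 in 2. In Ern1-LKO replicate 2 the Dnajb14 top peak lay at -3.44 kb from its start. Dnajb12 and Dnajc16 never were. The median number of libraries with a top peak was 6.5 over the 10 genes and 0 over all genes.

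**Figure D1:**
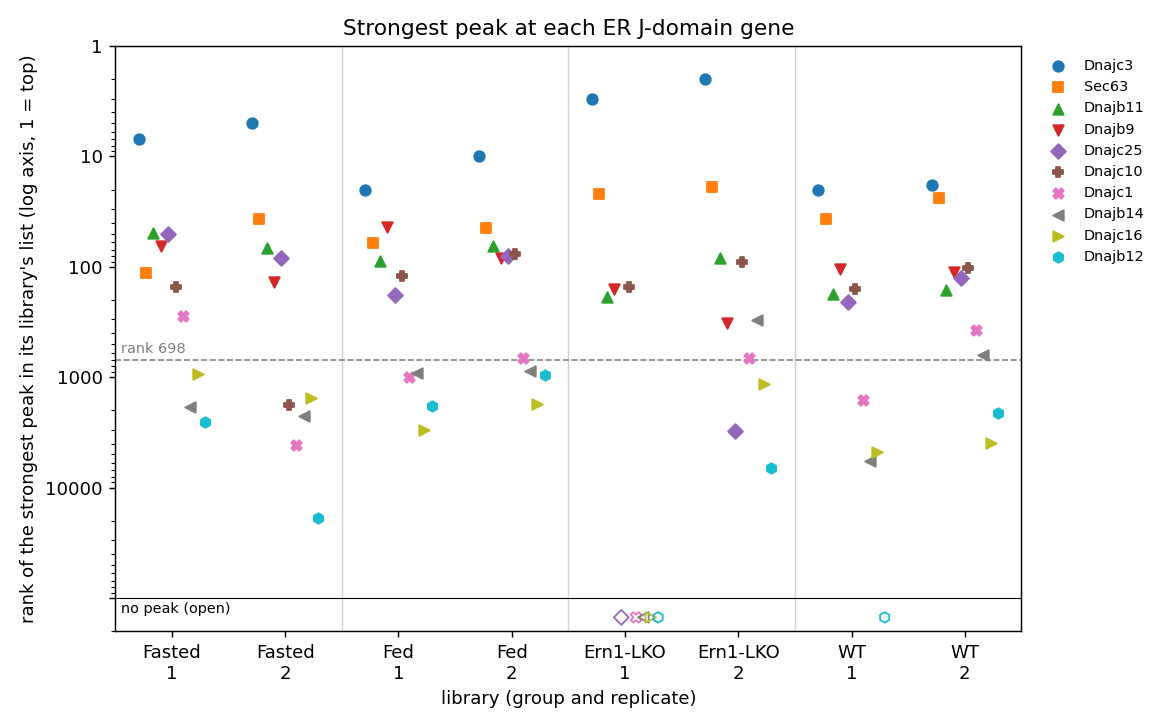
Rank of the strongest peak at each of the 10 genes within the list of its library (vertical log axis, 1 at the top), for 2 libraries of each group. The dashed line is rank 698, and open symbols are genes with no peak. Dnajc3 is the top gene of the 10 in every library, and Dnajb12 and Dnajc16 stay below rank 698.

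Dnajc3 encodes a soluble lumenal co-chaperone of BiP, also known as p58IPK. Its strongest peak ranked 7 and 5 in the Fasted lists, 20 and 10 in Fed, 3 and 2 in Ern1-LKO, and 20 and 18 in WT. It was first of the 10 genes in all 8 libraries. The fold enrichment, the authors' ratio of pileup to local background, was 64.3 and 40.8 in Fasted, 40.9 and 72.6 in Fed, 19.7 and 69.9 in Ern1-LKO, and 29.9 and 56.0 in WT. The lowest of these came from the short Ern1-LKO replicate 1 list, in which only 2 of 698 peaks ranked higher. The gene spans 118937932 to 118981702 of chromosome 14. Summits lay between -105 and -62 bp from its start, a range of 43 bp, at a median of 13 bp from the middle of the ERSE printed above. In 2 libraries the summit fell inside it.

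Sec63 encodes a membrane J-domain protein that works with the Sec61 channel and BiP in protein translocation (chromosome 10, 42761496 to 42832514). It ranked 114 and 37 in Fasted, 61 and 45 in Fed, 22 and 19 in Ern1-LKO, and 37 and 24 in WT. It was second of the 10 genes in 6 of the 8 libraries. Fold enrichment was 23.1 and 20.5 in Fasted, 36.8 and 53.7 in Fed, 13.6 and 55.1 in Ern1-LKO, and 32.9 and 64.6 in WT. The summits lay at 123 and 52 bp from the start in Fasted and at -13 and 8 bp in Fed. They lay at -22 and -11 bp in Ern1-LKO and at 5 and -18 bp in WT. Both Fasted summits were thus downstream of both Fed summits. This was seen after the values were known, and with 2 libraries against 2 no difference could be tested below p = 0.33 in an exact two-sided permutation test.

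Dnajb11 encodes a soluble BiP co-chaperone that binds unfolded and newly made chains (chromosome 16, 22857845 to 22879634). It ranked 49 and 67 in Fasted, 88 and 65 in Fed, 189 and 83 in Ern1-LKO, and 178 and 163 in WT. Fold enrichment ran from 4.12 in Ern1-LKO replicate 1 to 46.9 in Fed replicate 2. Summits lay from -61 to 28 bp of the start, between 16 and 73 bp from the middle of the ERSE-II. The same peak lay within 5 kb of the span of the neighbouring gene Tbccd1 in all 8 libraries, and a peak list does not say to which gene it belongs.

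Dnajb9 encodes a lumenal J-domain protein that binds misfolded clients and, in cultured cells, holds IRE1 inactive through BiP (chromosome 12, 44205897 to 44210068). It ranked 65 and 138 in Fasted, 44 and 83 in Fed, 160 and 321 in Ern1-LKO, and 105 and 111 in WT. Both Ern1-LKO libraries placed it further down their lists than both WT libraries did. The lists differ in length and depth, and a difference in occupancy was not tested. Fold enrichment was 31.6 and 11.1 in Fasted, 30.5 and 34.2 in Fed, 4.84 and 15.4 in Ern1-LKO, and 13.6 and 25.3 in WT. Summits lay on either side of the start, from -57 to 60 bp.

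Dnajc10 encodes the lumenal reductase that breaks disulfides of proteins bound for degradation (chromosome 2, 80315446 to 80354055). It ranked 154 and 1780 in Fasted, 122 and 76 in Fed, 152 and 90 in Ern1-LKO, and 160 and 102 in WT. The rank of 1780, in Fasted replicate 2, was the one library without a top peak at this gene, at a fold of 7.73 against 19.5 in Fasted replicate 1. The summit was the most fixed of all, between 120 and 153 bp after the start, a range of 33 bp. The summit therefore lay outside the promoter window, although the peak reached into the window in all 8 libraries. The absence of a CCACG core from that window covers only this part of the peak. It says nothing about the sequence at the summit.

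Dnajc25 encodes a further J-domain protein of the ER membrane (chromosome 4, 58994799 to 59025573). Its peak ranked 50 and 84 in Fasted and 180 and 80 in Fed. In Ern1-LKO replicate 1 there was no peak and in Ern1-LKO replicate 2 it ranked 3078, against 208 and 126 in WT. Fold enrichment was 39.6 and 14.1 in Fasted, 20.4 and 40.5 in Fed, 9.51 in Ern1-LKO replicate 2, and 12.1 and 24.3 in WT. Ordered by strength among the genes studied, it took place 9 of 10 in Ern1-LKO replicate 2, against place 6 of 9 in WT replicate 1 and place 5 of 10 in WT replicate 2. The 7 summits stayed within 45 bp, from -38 to 7 bp of the start, at a median of 22.5 bp from the middle of the UPRE.

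**Figure D2:**
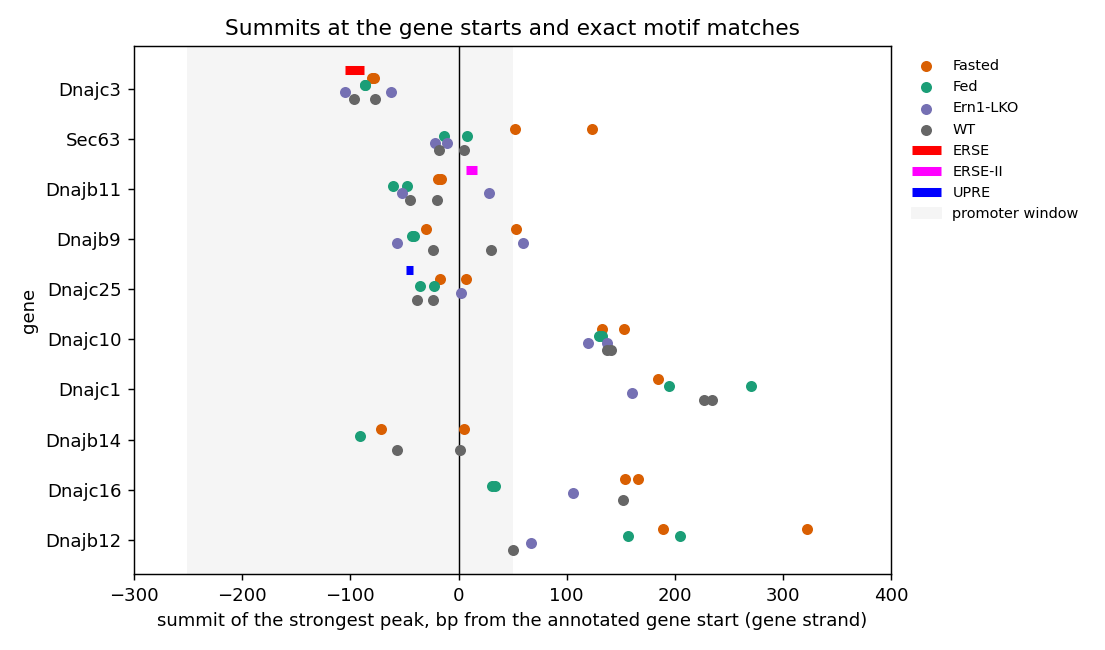
Summit of the strongest peak in each library, in bp from the annotated gene start on the strand of the gene, with points coloured by group. Shading is the promoter window and thick bars are exact ERSE, ERSE-II and UPRE matches. Dnajc3 summits lie beside the ERSE, and Dnajc10 summits stay between 120 and 153 bp after the start. Both Fasted summits at Sec63 lie downstream of both Fed summits, which was seen after the values were known and was not tested. Summits over 500 bp away are not drawn.

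The other 4 genes encode membrane proteins, and they ranked below the 6 genes above in Fasted replicate 1, in both Fed and in both WT libraries. In Fasted replicate 2 Dnajc16 ranked above Dnajc10, and in Ern1-LKO replicate 2 Dnajb14 ranked above Dnajb9 while Dnajb14, Dnajc1 and Dnajc16 ranked above Dnajc25. Dnajc1, a J-domain protein that contacts ribosomes at the ER membrane, ranked 280 and 4116 in Fasted, 990 and 670 in Fed, 671 in Ern1-LKO replicate 2, and 1614 and 373 in WT. Dnajb14 ranked 1860 and 2246 in Fasted, 925 and 879 in Fed, 304 in Ern1-LKO replicate 2, and 5691 and 633 in WT. The ranks of 879 in Fed replicate 2 and 304 in Ern1-LKO replicate 2 belonged to a peak at -3.44 kb, in a region near the annotated start of H2az1. The peak at the Dnajb14 start ranked 9578 in Fed replicate 2 and 2694 in Ern1-LKO replicate 2. Dnajb12 and Dnajb14 encode proteins that take part in the degradation of ER membrane proteins with the cytosolic Hsp70. Dnajb12 ranked 2575 and 18791 in Fasted, 1835 and 952 in Fed, 6710 in Ern1-LKO replicate 2 and 2130 in WT replicate 2. Dnajc16 ranked 929 and 1533 in Fasted, 2997 and 1742 in Fed, 1153 in Ern1-LKO replicate 2, and 4749 and 3970 in WT. None of the 4 held a peak in Ern1-LKO replicate 1, whose list ended at rank 698, and their highest fold anywhere was 18.95, at Dnajc16 in Fasted replicate 1.

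Across the 10 genes, the strongest summit lay within 500 bp of the annotated start in 70 of 74 gene and library pairs with a peak. Over all genes with an annotated start and a peak the share was 57.5%, and it ran from 43.1% in Fasted replicate 2 to 65.4% in Ern1-LKO replicate 1. The 4 exceptions were at Dnajb14, Dnajc1 and Dnajc16. At Dnajb14 the strongest peak of Fed replicate 2 and of Ern1-LKO replicate 2 lay at -3.44 kb from the start, and in Ern1-LKO replicate 2 it was the top peak of rank 304. This and the start itself lie within 5 kb of the span of H2az1, which encodes a histone variant. At Dnajc1 the strongest peak of Fasted replicate 2 lay 24.9 kb inside the gene, and at Dnajc16 that of WT replicate 1 lay at -1508 bp.

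Merging overlapping peaks gave 53 regions around the 10 genes, of which 29 rested on 1 library and 17 on at least 4. The 5 regions called in all 8 libraries were the start regions of Dnajb9, Dnajb11, Dnajc3, Dnajc10 and Sec63. Recurrent regions away from the start were found at Dnajb12, Dnajb14, Dnajc1 and Dnajc16. Dnajc1 had one in 6 libraries at a median of 24.8 kb inside the gene (chromosome 2, 18367819 to 18368185), at folds of 6.04 to 13.1. Dnajb14 had one in 6 libraries at a median of -2.91 kb, within 500 bp of the annotated starts of H2az1 and Gm43403, another in 6 libraries 44.1 kb inside the gene and one in 5 libraries 51.1 kb from the start, beyond its end. Dnajc16 had one in 5 libraries at -3.24 kb, at the annotated start of Casp9, a caspase gene. The strongest Dnajc16 peak itself also lay within 5 kb of the Casp9 span in all 7 libraries with a peak. Dnajb12 had regions in 4 and 5 libraries at 14.8 and 20.2 kb from the start. At Dnajc3, Dnajc10, Dnajc25 and Dnajb11, by contrast, each region other than the start region rested on 1 library. Sec63 had 2 further regions in 2 libraries each, and Dnajb9 had one in 3.

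**Figure D3:**
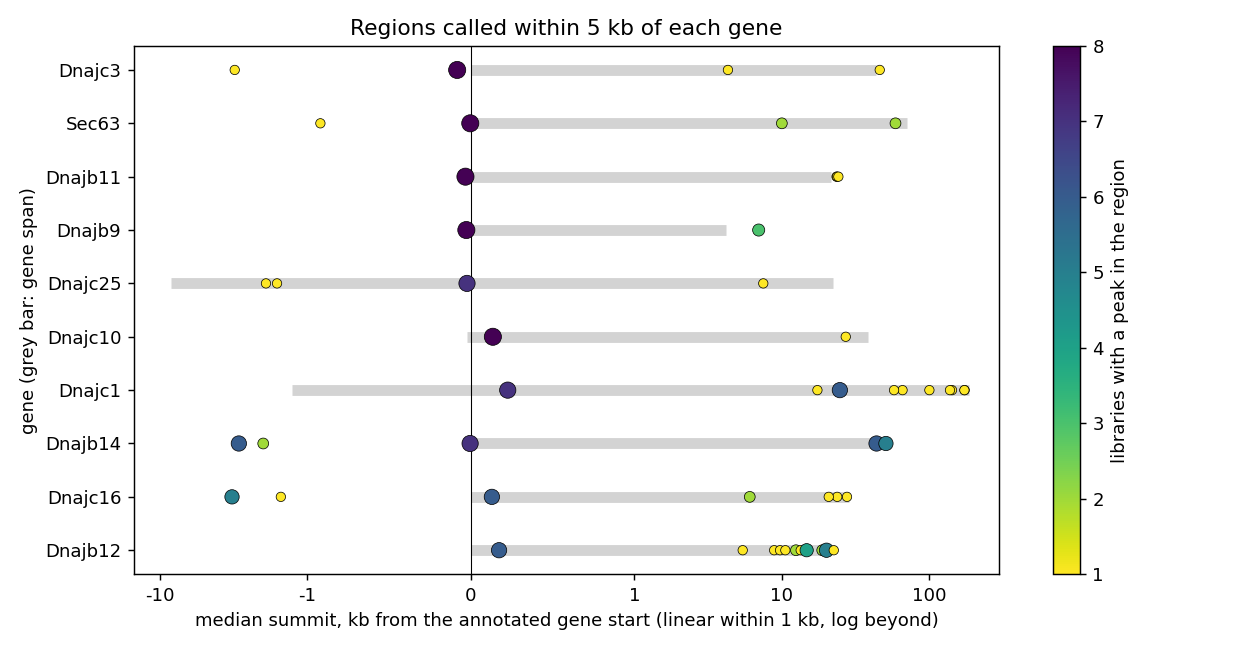
Regions of merged peaks within 5 kb of each gene, placed by median summit in kb from the annotated start (linear within 1 kb, log beyond). Colour and size give the number of libraries, and grey bars are gene spans. The start region holds the most libraries at each gene, and the 7 other regions found in at least 4 libraries lie at Dnajb12, Dnajb14, Dnajc1 and Dnajc16.

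Fasted and Fed livers were compared to ask whether occupancy of these genes differed with feeding. No gene of the 10 held a peak in both Fasted and neither Fed library (0 of 10, where 0.0731% of all genes did) or in both Fed and neither Fasted library (0 of 10, against 1.2%). Every gene held a peak in all 4 libraries, so the mean was 10 in Fasted and 10 in Fed (SD 0, n = 2 each). Among the 698 top peaks the counts were 6.0 ± 1.4 genes in Fasted and 6.5 ± 0.71 in Fed (SD, n = 2 each), a difference of -0.5, less than the spread between libraries. It was -1.5 without Fasted replicate 1, 0.5 without Fasted replicate 2, -1 without Fed replicate 1 and 0 without Fed replicate 2. There too 0 of 10 were in both Fasted and neither Fed (0.448% of all genes) and 0 of 10 in both Fed and neither Fasted (0.932%). Dnajb9, Dnajb11, Dnajc3, Dnajc25 and Sec63 were top peaks in all 4 of these libraries. Dnajc10 was missing from the top peaks of Fasted replicate 2 and Dnajc1 from those of Fasted replicate 2 and Fed replicate 1.

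Ern1-LKO and WT livers were compared to ask whether occupancy of these genes needs Ern1. With all peaks, 0 of 10 genes held a peak in both Ern1-LKO libraries and in no WT library, as did 0% of all genes. In both WT libraries and in no Ern1-LKO library there were 0 of 10, against 0.896%. The mean number of genes with a peak was 7.5 ± 3.5 in Ern1-LKO and 9.5 ± 0.71 in WT (SD, n = 2 each), and the difference of -2 lay within the spread. It rests on the short Ern1-LKO replicate 1 list, since Ern1-LKO replicate 2 and WT replicate 2 each held all 10. The difference was 0.5 without Ern1-LKO replicate 1 and -4.5 without Ern1-LKO replicate 2. Among the 698 top peaks the counts were 6.0 ± 1.4 in Ern1-LKO and 7.0 ± 1.4 in WT, a difference of -1. It was 0 without Ern1-LKO replicate 1 or WT replicate 2, and -2 without Ern1-LKO replicate 2 or WT replicate 1. The Ern1-LKO replicate 2 count includes Dnajb14 only through its peak at -3.44 kb. For summits within 500 bp of the start, a window chosen after seeing the data, the difference was -1.5. Within 1 kb of either gene end it was -0.5.

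At that equal number of top peaks Dnajc25 was in both WT libraries and in no Ern1-LKO library. This was 1 of 10 genes, where 0.923% of all genes were called so. The reverse was seen for 0 of 10 genes, against 0.635% of all genes. In the authors' pooled lists, of 14428 peaks in Ern1-LKO and 13841 in WT, Dnajc25 ranked 2924 in Ern1-LKO and 164 in WT. Dnajc3 ranked 4 in Ern1-LKO and 22 in WT, and Sec63 18 and 27. Dnajc1 ranked 1991 in Ern1-LKO and 508 in WT, Dnajb9 404 and 133, and Dnajc16 1424 and 4509. The pooled lists have no replicates and the Ern1-LKO list mixes libraries of 11995890 and 4340956 kept reads, so these ranks describe the lists only. Depth and peak number differ between the libraries of each group, and their part in the Dnajc25 call was not tested.

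The other chaperone genes were set beside these 10 by 2 lists. The first held 11 genes for BiP itself and its cofactors. Of them, 7 held a peak in all 8 libraries (2.64% of all genes), and 6 did among the 698 top peaks (0.553% of all genes). These were Hspa5, which encodes BiP, Hyou1, a nucleotide exchange factor for it, Hsp90b1, the ER Hsp90, and Sdf2l1, Manf and Creld2. Hspa5 ranked 9 and 46 in Fasted, 3 and 18 in Fed, 2 and 370 in Ern1-LKO, and 15 and 67 in WT. Dnajc3 thus ranked above its Hsp70 partner in both Fasted libraries and in replicate 2 of Fed, Ern1-LKO and WT, and below it in the other 3. Of the 11, 1 gene had a top peak in both WT libraries and in no Ern1-LKO library (0.923% of all genes), and 0 the reverse (0.635% of all genes).

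The second list held 29 genes for J-domain proteins outside the ER, in the cytosol, nucleus, mitochondria or endosomes. With all peaks, 28 and 17 of 29 held a peak in Fasted (73.1% and 43.6% of all genes), 29 and 27 in Fed (76.1% and 71.2%), 1 and 24 in Ern1-LKO (3.58% and 62.4%), and 12 and 26 in WT (19.6% and 65%). Among the 698 top peaks the counts were 1 and 1 in Fasted, 2 and 1 in Fed, 1 and 1 in Ern1-LKO, and 0 and 1 in WT. None of the 29 was a top peak in all 8 libraries, against 4 of the 10 ER genes and 0.553% of all genes. The median number of libraries with a top peak was 0 in this list and 8 in the BiP list. These are counts without a test, since genes are not replicates and the lists were chosen with earlier results of these data known.

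**Figure D4:**
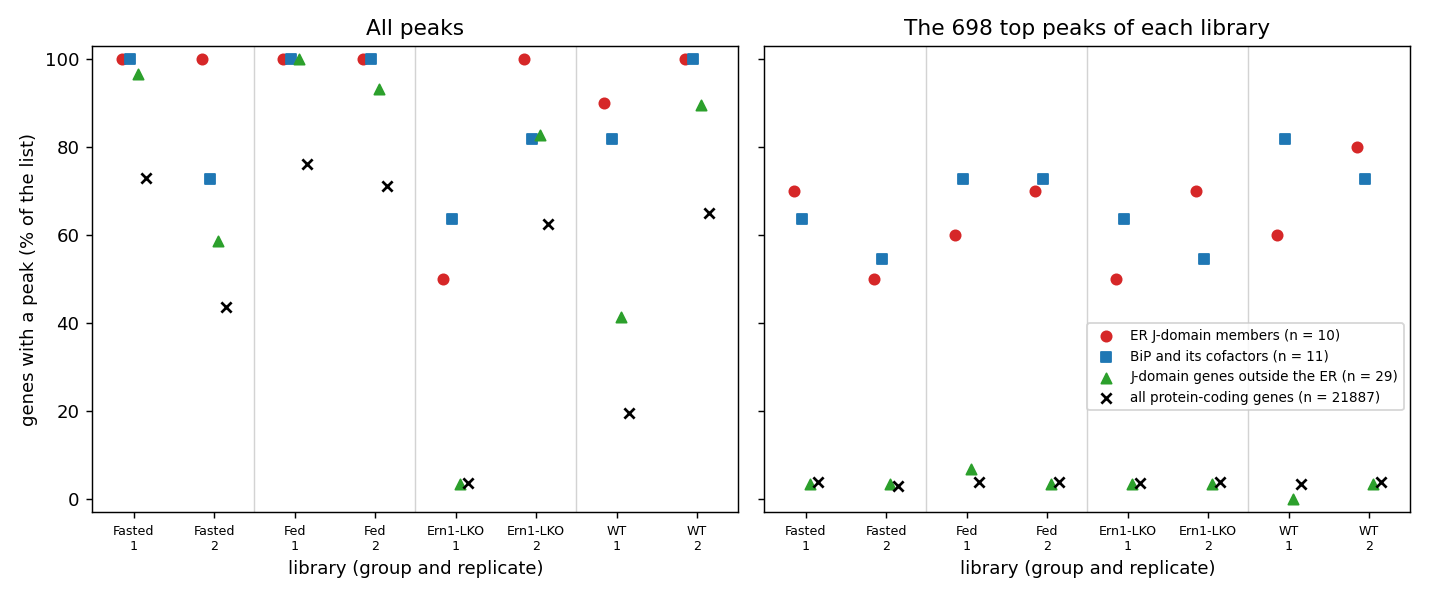
Share of each gene list holding a peak within 5 kb, in percent, for each library, with all peaks at left and the 698 top peaks of each library at right. At right, 50% to 80% of the ER J-domain genes hold a top peak, near the BiP list, while J-domain genes outside the ER lie near all protein-coding genes.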

How the data were processed

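XBP-1 ChIP-seq of mouse liver was taken from 8 per-library and 4 pooled peak lists deposited by the authors; the 2 input libraries entered only through the peak calls. Per the file headers, peaks were called by MACS version 2.1.1.20160309 in single-end mode, keeping 1 tag per position, at a q cutoff of 0.05. The submitters' processing notes name MACS2 2.2.1 instead, with bcl2fastq, FastQC 0.11.3, Bowtie2 2.2.5 and build mm10. Per the file headers, the deposited values are −log10 p-values, −log10 q-values, a fold enrichment over local background (a ratio) and a pileup signal, which was not used. List length differed between libraries and did not follow depth (in 3 of the 4 groups the library with more kept reads had the shorter list), and fold and rank are used to describe peaks within a list.

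Peaks were ranked by p-value with Python 3.11.15, numpy 2.4.6 and pandas 2.3.3, matched to RefSeq gene spans of GRCm38.p6 by summit, and merged into regions at 1 bp of overlap. All 10 members matched the gene and promoter tables. Window matching was tested on simulated data, recovering 2000 of 2000 planted summits. No model or test was run, because a peak's deposited values are comparable only within its list and 2 libraries a group cannot give an exact permutation p below 0.33. All 10 members were named, with list genes at the top of all 8 libraries and neighbours within 5 kb of a strongest peak. Members and lists were chosen with earlier results of these data known. Marker lists of 5 hepatocyte, 4 Kupffer, 3 endothelial and 3 stellate cell genes held 0 genes with a top peak, except 1 hepatocyte gene in Ern1-LKO replicate 1. Alternatives were −log10 q limits of 5 and 10, a fold limit of 5, other windows, pooled lists, equal top peaks, the replicate block, leaving out each library, other motifs and, chosen after seeing the data, a window of 500 bp at the start.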

Additional observations from a re-analysis of the deposited data

How the results depend on the processing

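Of 144 recomputed values, 135 stayed within tolerance and 9 moved. The tolerance was 1 SD of the difference between groups, and a factor of 1.5 for a count; with 2 libraries a group an SD is wide, so it also takes in changes of sign. When 1 library was left out, the difference between Ern1-LKO and WT ranged from -4.5 to 0.5 with all peaks and from -2 to 0 with top peaks. That between Fasted and Fed ranged from -1.5 to 0.5 with top peaks and was 0 each time with all peaks. It was 0.5 with top peaks for summits inside the gene span. The count of genes with a peak in all 8 libraries, 5, was 3 at a fold of at least 5 and 1 for summits inside the gene span with no flank, since in Ern1-LKO replicate 1 only the Dnajc10 summit lies after the start. It ranged from 5 to 9 when 1 library was left out, with 9 without Ern1-LKO replicate 1. The difference of 0 between Fasted and Fed became -0.5 at −log10 q limits of 5 and of 10 and at the fold limit, since Dnajb12 then left Fasted replicate 2. The count of genes in both WT libraries and in no Ern1-LKO library, 0 with all peaks, was 1 with equal numbers of top peaks and ranged from 0 to 4 when 1 library was left out, with 4 without Ern1-LKO replicate 2. The promoter count was 1 for the ERSE, 8 for the core CCACG and 1 for the UPRE. With the replicate number as a block the differences were 0 and -2 with all peaks and -0.5 and -1 with top peaks, as without it. Replicate differences correlated over genes at 0.02 in Fasted and Fed and 0.53 in Ern1-LKO and WT with all peaks, and at 0.01 and 0.08 with top peaks, and the labels state no pairing. The 698 peaks of Ern1-LKO replicate 1 set the number of top peaks used, and a gene absent from that short list may still have been bound.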

Other observations

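Peaks were also counted at all genes whose promoter window held an exact element. Of 29 genes with an ERSE, 11 (37.9%) held a peak in all 8 libraries and 7 (24.1%) did so among the 698 top peaks. For the ERSE-II the counts were 2 of 11 genes (18.2%) and 1 (9.09%), and for the UPRE 20 of 144 (13.9%) and 12 (8.33%). Of the 7065 genes with the core CCACG, 4.05% held a peak in all 8 libraries and 1.09% did so among the 698 top peaks. The shares were 2.65% and 0.583% of all 17492 genes with a promoter window. These are counts without a test, and Dnajc3, Dnajb11 and Dnajc25 are among the genes counted.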
